A study of Mus musculus with 40 samples.

Results

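The nuclear-coded genes of the respiratory chain were followed in the jejunum of mice given the anthracycline doxorubicin, 3 and 7 days after the injection. The rule for choosing them used the gene symbol alone and no measured value, although it was set with earlier results of these data known: symbols that begin with Nduf and 1 of the letters a, b, c, s or v and a digit, the symbols Sdha to Sdhd, and those that begin with Uqcr, with Cox4 to Cox8 or with Atp5. On the array 84 of 36155 genes with a symbol of their own met this rule. They comprised 32 genes of complex I, 4 of complex II, 8 of complex III, 20 of complex IV and 20 of complex V. The rule also took in 3 pseudogenes (Atp5c1-ps, Atp5l-ps1 and Atp5l2) and a pair of symbols now called Dmac2l and Dmac2 (Atp5s and Atp5sl), which are not subunits of the ATP synthase. Ndufa4 and Ndufa4l2 were counted with complex IV, where the Ndufa4 protein sits.

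The respiratory chain lies in the inner membrane of the mitochondrion. Complex I takes electrons from NADH and complex II, which is also an enzyme of the citric acid cycle, takes them from succinate; both pass them to ubiquinone. Complex III hands them to cytochrome c and complex IV to oxygen. Complexes I, III and IV pump protons, and complex V, the ATP synthase, uses the proton gradient to make ATP. Most subunits are coded in the nucleus, made in the cytosol and imported, and a few hydrophobic core subunits are coded by mitochondrial DNA. In the intestine the absorptive enterocytes and the muscle coat both carry many mitochondria. Doxorubicin intercalates into DNA, poisons topoisomerase II and is known to harm mitochondria, above all in the heart.

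The mice were female, 10 to 12 weeks old, and either wild-type (WT) or deficient in surfactant protein D (KO, Sftpd-/-), an innate immune lectin. The KO line had been backcrossed for more than 10 generations onto C57BL/6N and the WT mice were littermates. Each animal received a single intraperitoneal injection of doxorubicin at 20 mg/kg (Dox) or of isotonic saline (NaCl) and was killed on day 3 or day 7, which gave 8 groups of 5 mice: WT-NaCl3, WT-NaCl7, WT-Dox3 and WT-Dox7 in the WT mice and KO-NaCl3, KO-NaCl7, KO-Dox3 and KO-Dox7 in the KO mice. RNA came from unsorted tissue of the jejunum, the middle segment of the small intestine, so that fewer cells of a type and less RNA per cell cannot be told apart. The knockout is constitutive and whole-body.

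All 40 arrays measured 65956 non-control transcript clusters, and replicate arrays correlated at 0.975 to 0.995. The deposited values are log2 signals; a difference of 1 is a doubling or halving of the linear signal. The 23 background probe sets averaged 3.45 and the highest of them reached 6.99. Each of the 84 genes was read from its brightest cluster, and mean signals ran from 3.14 to 16.77, with 46 genes over 10. There were 11 genes under 6.99 in all 8 groups: Atp5j2, Cox4i2, Cox6a2, Cox6b2, Cox7b2, Cox8b, Cox8c, Ndufa4l2, Ndufb2, Ndufb7 and Ndufs5. The clusters of 82 of the 84 genes overlapped the RefSeq gene of the same name (GRCm38.p6). The exceptions were Atp5g2 and Atp5l, whose clusters lay elsewhere in the genome, at chr7:23946649-23947237 and chr5:24581458-24581879. Sftpd read 3.83 to 4.31 on every array, near the background, in WT as in KO mice, so the deleted gene did not check the genotype labels.

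RefSeq gave a promoter for 66 of the 84 genes. Within 250 bases before and 50 after the start, on either strand, 3 short motifs known from promoters of nuclear-coded mitochondrial genes were more frequent than among all 27025 genes with a promoter. The NRF1 motif (GCGCA, any base, then GCGC) was present in 14 of the 66 (21.2%) against 5.19% of all genes. The ETS motif CCGGAAG, which GABP binds, was present in 16 (24.2%) against 9.93%, and the YY1 motif AAGATGGC in 10 (15.2%) against 3.19%. At least 1 of these 3 motifs was found in 35 of the 66 (53.0%) and in 16.4% of all genes. The promoter stretches printed here were chosen for their part in the results. Ndufb7, Sdha and Atp5h fell without overlap of the groups in both genotypes, Uqcrh passed the test in WT mice and Cox6a1 in KO mice, Cox7a1 fell the most and Cox6b2 rose. Each line gives the 250 bases before the start, 5′ to 3′ on the strand of the gene, and capitals mark matches, on either strand, to NRF1, ETS, YY1, the ERR motif TCAAGGTCA or the CCAAT box. They lie at chr8:83566508-83566757 (Ndufb7, plus strand), chr13:74350241-74350490 (Sdha, minus), chr4:116075071-116075320 (Uqcrh, minus), chr5:115348959-115349208 (Cox6a1, minus), chr11:115419920-115420169 (Atp5h, minus), chr7:30183921-30184170 (Cox7a1, plus) and chr7:4753095-4753344 (Cox6b2, minus) on GRCm38.p6.
Ndufb7: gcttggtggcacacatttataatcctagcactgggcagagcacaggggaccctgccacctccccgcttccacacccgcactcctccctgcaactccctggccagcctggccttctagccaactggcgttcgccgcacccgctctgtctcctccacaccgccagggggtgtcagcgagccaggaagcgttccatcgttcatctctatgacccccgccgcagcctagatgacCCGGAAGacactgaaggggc
Sdha: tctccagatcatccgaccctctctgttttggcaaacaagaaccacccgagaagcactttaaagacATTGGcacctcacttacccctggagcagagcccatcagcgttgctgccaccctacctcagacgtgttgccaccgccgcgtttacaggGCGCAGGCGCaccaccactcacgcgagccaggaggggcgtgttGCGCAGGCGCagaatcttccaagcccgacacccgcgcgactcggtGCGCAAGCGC
Uqcrh: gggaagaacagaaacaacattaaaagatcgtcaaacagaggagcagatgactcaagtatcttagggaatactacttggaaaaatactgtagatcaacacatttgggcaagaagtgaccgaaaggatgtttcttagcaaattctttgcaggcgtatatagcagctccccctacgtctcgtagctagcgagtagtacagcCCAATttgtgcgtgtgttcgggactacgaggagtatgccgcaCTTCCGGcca
Cox6a1: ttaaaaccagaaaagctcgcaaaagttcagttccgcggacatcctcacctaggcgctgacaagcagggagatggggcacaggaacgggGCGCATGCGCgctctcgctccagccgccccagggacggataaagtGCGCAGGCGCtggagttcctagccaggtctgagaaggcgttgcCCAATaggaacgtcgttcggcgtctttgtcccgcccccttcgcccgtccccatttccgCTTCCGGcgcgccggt
Atp5h: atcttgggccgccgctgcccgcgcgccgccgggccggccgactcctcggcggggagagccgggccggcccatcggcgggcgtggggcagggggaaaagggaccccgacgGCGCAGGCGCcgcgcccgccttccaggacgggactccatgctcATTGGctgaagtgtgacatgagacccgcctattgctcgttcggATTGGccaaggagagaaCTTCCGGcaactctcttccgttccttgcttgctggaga
Cox7a1: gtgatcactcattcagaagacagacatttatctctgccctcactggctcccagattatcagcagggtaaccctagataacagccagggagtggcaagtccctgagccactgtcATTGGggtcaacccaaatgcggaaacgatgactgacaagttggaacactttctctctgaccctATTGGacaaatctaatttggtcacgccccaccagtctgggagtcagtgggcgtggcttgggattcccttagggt
Cox6b2: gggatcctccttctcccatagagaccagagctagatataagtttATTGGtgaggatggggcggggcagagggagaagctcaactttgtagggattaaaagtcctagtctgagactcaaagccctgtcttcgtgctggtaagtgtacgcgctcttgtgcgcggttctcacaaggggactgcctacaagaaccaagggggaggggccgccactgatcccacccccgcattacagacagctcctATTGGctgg
The Sdha stretch held 3 NRF1 matches, which began 98, 55 and 10 bases before the start. Cox6a1 held an NRF1 pair at 162 and 117 bases and an ETS match at 16, and Atp5h an NRF1 match at 141 and an ETS match at 38. Ndufb7 and Uqcrh each held 1 ETS match, 20 and 10 bases before the start. In Cox7a1 and Cox6b2 the only matches in the stretch were CCAAT boxes. Before the start this box was found in 29 of the 66 genes (43.9%) and in 37.5% of all genes. Ndufb3, Ndufv1 and Uqcrfs1, which fell in both genotypes, held no NRF1, ETS or YY1 motif either. Among the genes that fell in both genotypes at day 3, 29 had a promoter; 5 of these held the NRF1 motif, 6 the ETS motif and 8 the YY1 motif. Among those that passed in neither genotype, 25 had a promoter and the numbers were 3, 5 and 2. These matches are letters in a window and no binding was measured.

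On day 3 after doxorubicin the nuclear-coded respiratory chain genes were lower in the jejunum of both genotypes. In WT mice 43 of the 84 fell and 1 rose at an adjusted p under 0.05 (limma, Benjamini-Hochberg over all clusters), whereas 2.13% of all clusters fell and 2.60% rose. In KO mice 44 fell and 1 rose, against 3.68% and 5.66% of all clusters. The log2 change was negative for 81 of the 84 genes in each genotype, with a median of −0.50 in WT (29.1% lower on the linear scale) and −0.45 in KO (26.8% lower). The median over all clusters was 0.004 and −0.044. Both genotypes had 37 fallen genes in common, 6 passed in WT alone and 7 in KO alone, 33 fell in neither and Cox6b2 rose in both; whether the genotypes differed was tested separately below. The fall was also seen beside genes of like brightness. Of the 46 respiratory chain genes with a mean signal over 10, 27 fell in WT and 26 in KO, against 10.3% and 12.0% of the 4289 genes that bright. The counts for one genotype changed with the fit, the scaling and the mice included. With only the 2 compared groups in the fit 5 genes passed in WT and 27 in KO. The plain analysis of variance that the methods name, here also run on the 2 compared groups alone, gave 0 in WT and 15 in KO. In the limma test of all 8 groups 68 genes had an unadjusted p under 0.05 in WT. With each array centred on its median 27 passed in KO. Leaving out mouse 244 (WT-Dox3) gave 24 genes in WT, and leaving out mouse 44 (WT-NaCl3) gave 28. In KO it was 24 without mouse 236 and 29 without mouse 2 of KO-Dox3, and 27 without mouse 254 of KO-NaCl3.

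Averaged over the genotypes, the day 3 fall was measured with more mice. It reached 63 of the 84 genes, with 1 risen, against 5.83% and 7.39% of all clusters, and this total of 64 lay between 56 and 69 under every alternative and without any single mouse. The median change was −0.48. By complex 25 of 32 genes fell in complex I, 4 of 4 in complex II, 6 of 8 in complex III, 11 of 20 in complex IV and 17 of 20 in complex V. Complex V was counted with its pseudogenes and with Atp5s and Atp5sl, which are no subunits.

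**Figure D1:**
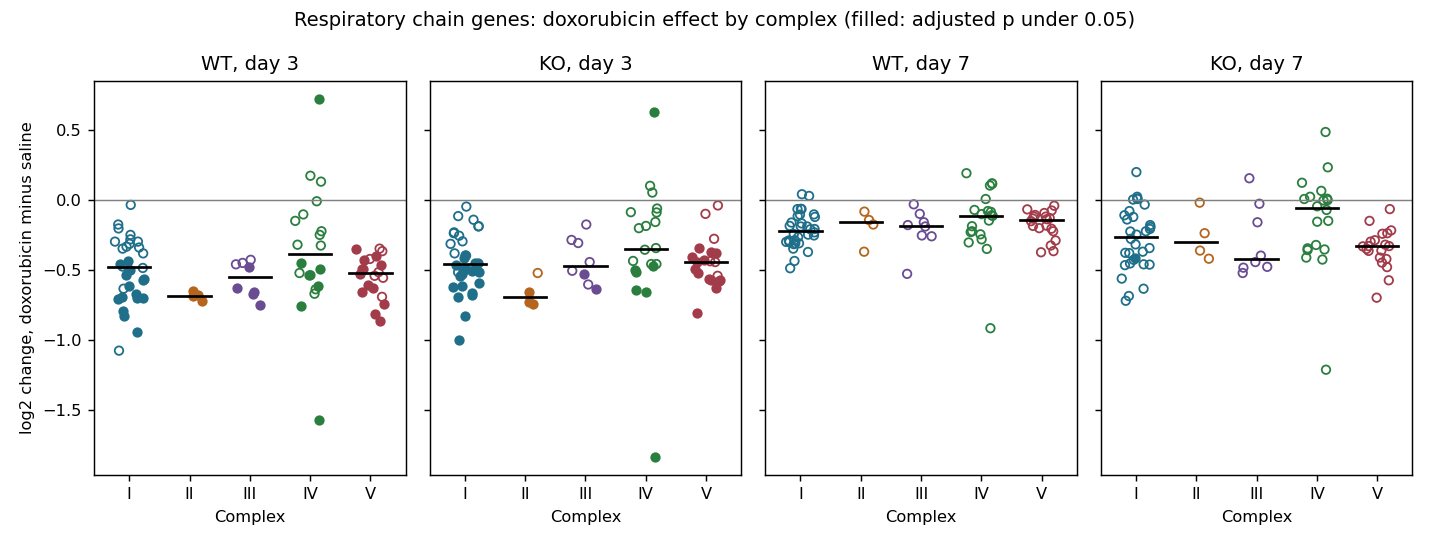
Log2 change after doxorubicin (y axis) of each of the 84 genes by complex, within each genotype and day; filled points passed the test and black bars are medians. At day 3 the points of 81 genes lie below 0 in WT and as many in KO, and at day 7 they lie closer to 0.

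The shift was seen mouse by mouse. For each mouse the deviation of each of the 84 genes from its mean over all 20 saline mice was taken, and then the median over the genes. In WT-NaCl3 it ran from −0.21 to 0.27 with a middle value of 0.03, and in WT-Dox3 from −0.84 to −0.16 with a middle value of −0.47. In KO-NaCl3 it ran from −0.27 to 0.26 around 0.09, and in KO-Dox3 from −0.67 to −0.16 around −0.34. The medians were thus negative in all 10 doxorubicin mice of day 3, and the mildest of them lay within the range of the saline mice. Every doxorubicin array lay below every saline array for 15 genes in WT (1.87% of all clusters) and 18 in KO (3.10%). Genes for which this held in both genotypes, with a fall that passed in both, included Ndufb3, Ndufb7, Sdha, Uqcrfs1, Atp5c1, Atp5h and Atp5j. Of these Ndufb7 was under 6.99 in all groups. The share of all clusters without overlap in both genotypes was not counted.

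**Figure D2:**
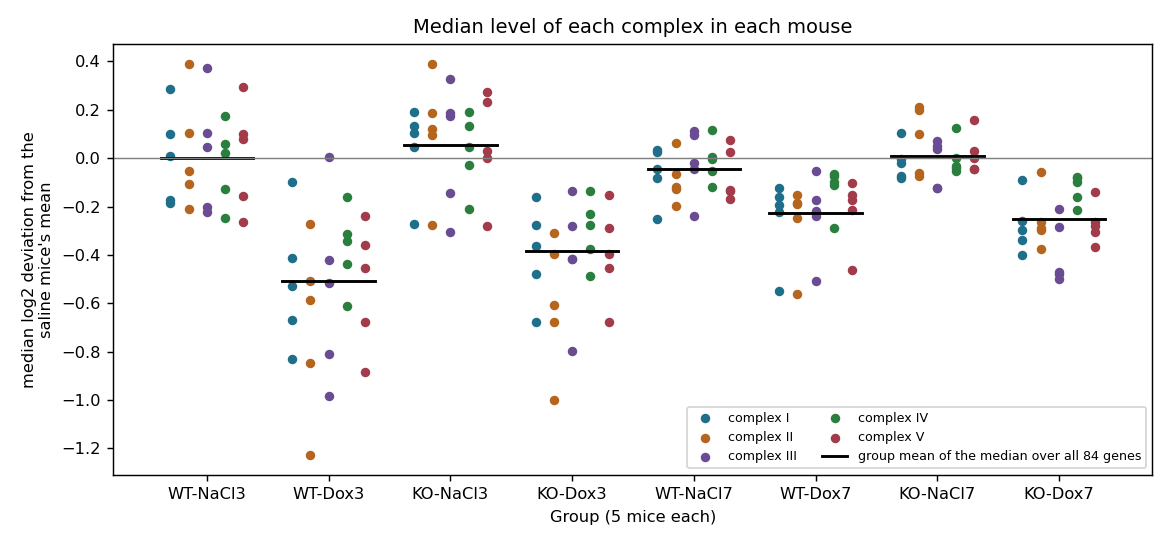
Median over the genes of each complex of the log2 deviation from the mean of all 20 saline mice (y axis), 1 point per mouse and complex with 5 mice per group; black bars are the group mean of the median over all 84 genes. Over all 84 genes the doxorubicin mice of day 3 lay between −0.84 and −0.16 and those of day 7 between −0.49 and −0.10.

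Complex I showed the fall in all its parts. In WT 15 and in KO 19 of its 32 genes fell, with median changes of −0.48 and −0.46. Of the 7 core subunits of the matrix arm, which carry the flavin and the iron-sulphur clusters, 4 fell in each genotype; of 8 accessory subunits of that arm 3 and 5 fell, and of 17 accessory subunits of the membrane arm 8 and 10.

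Ndufa9 (chr6:126821863-126849144), an accessory subunit near the ubiquinone site, read 12.64, 13.14, 12.55, 12.99 and 12.52 in WT-NaCl3 and 12.58, 12.08, 11.54, 11.77 and 11.14 in WT-Dox3. It read 12.89, 12.24, 12.75, 12.7 and 12.83 in KO-NaCl3 and 11.83, 12.39, 12.03, 11.46 and 12.38 in KO-Dox3. Most doxorubicin mice were below the saline mice, and the groups overlapped through 1 WT-Dox3 mouse and 1 KO-NaCl3 mouse. The change was −0.95 ± 0.18 (SE; adjusted p = 0.00094) in WT and −0.66 ± 0.18 (adjusted p = 0.013) in KO, where it was 0.077 without mouse 236 of KO-Dox3.

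Ndufb3 (chr1:58586384-58595964), an accessory subunit of the membrane arm, had no overlap in either genotype. Its signals were 9.67, 9.89, 10.09, 9.97 and 9.61 in WT-NaCl3 against 9.38, 9.29, 8.91, 9.07 and 8.63 in WT-Dox3. They were 10.01, 9.72, 10.18, 10.43 and 9.93 in KO-NaCl3 against 8.81, 9.0, 9.56, 8.42 and 9.49 in KO-Dox3. It fell by 0.79 ± 0.17 on the log2 scale in WT (adjusted p = 0.0028) and by 1.0 ± 0.17 in KO (adjusted p = 5.5e-05), that is to 0.501 of the saline level on the linear scale.

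The remaining complex I genes of note ranged more widely. Ndufs1, the large iron-sulphur subunit, fell by 0.61 ± 0.14 in WT (adjusted p = 0.0041) and by 0.42 ± 0.14 in KO (adjusted p = 0.046). Ndufv1, which holds the flavin that accepts electrons from NADH, fell by 0.70 ± 0.15 (adjusted p = 0.0040) and 0.51 ± 0.15 (adjusted p = 0.026). Among membrane arm subunits Ndufb11 fell by 0.83 in WT and 0.55 in KO (adjusted p = 0.0034 and 0.048). Ndufa1 fell in KO, by 0.83 ± 0.19 (adjusted p = 0.0023), and its change in WT was −0.31 ± 0.19 (adjusted p = 0.47). Ndufs8, a core iron-sulphur subunit, had a large but scattered change of −1.08 ± 0.34 in WT that did not pass (adjusted p = 0.061), and −0.38 in KO.

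All 4 genes of complex II fell in WT and 3 in KO, with medians of −0.68 and −0.69. Sdha (chr13:74322254-74350280), the flavoprotein that oxidises succinate, read 12.89, 13.13, 13.08, 12.93 and 12.85 in WT-NaCl3 and 12.57, 12.81, 12.26, 12.18 and 11.82 in WT-Dox3. It read 13.16, 12.99, 13.2, 13.46 and 13.13 in KO-NaCl3 and 12.37, 12.67, 12.8, 12.15 and 12.66 in KO-Dox3. The groups did not overlap, and the falls of 0.65 ± 0.12 in WT (adjusted p = 0.00077) and 0.66 ± 0.12 in KO (adjusted p = 0.00022) passed in both genotypes. Sdhb (chr4:140961203-140979193), the iron-sulphur subunit, read 10.71, 11.09, 10.59, 11.01 and 10.62 in WT-NaCl3, 10.61, 10.24, 9.93, 10.22 and 9.61 in WT-Dox3, 10.92, 10.43, 10.82, 11.34 and 11 in KO-NaCl3, and 10.16, 10.39, 10.14, 9.63 and 10.48 in KO-Dox3. It fell by 0.68 ± 0.16 (adjusted p = 0.0069) and 0.74 ± 0.16 (adjusted p = 0.0013), with 1 doxorubicin mouse of each genotype reaching into the saline range. The membrane anchor Sdhc fell in both genotypes, by 0.69 and 0.73 (adjusted p = 0.019 and 0.0061). The anchor Sdhd fell in WT, by 0.72 (adjusted p = 0.016), with −0.52 in KO (adjusted p = 0.076).

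In complex III all 8 genes had negative changes in both genotypes, and 5 fell in WT and 2 in KO (medians −0.55 and −0.48). Uqcrfs1 (chr13:30540308-30545362), the Rieske iron-sulphur protein, read 9.56, 9.84, 9.53, 9.53 and 9.66 in WT-NaCl3 and 9.19, 9.14, 8.8, 8.96 and 8.28 in WT-Dox3. In KO-NaCl3 it read 9.82, 9.49, 9.72, 9.76 and 9.84 and in KO-Dox3 8.96, 9.09, 9.19, 8.74 and 9.46. Every doxorubicin mouse lay below every saline mouse, by means of 0.75 ± 0.13 in WT (adjusted p = 0.00039) and 0.64 ± 0.13 in KO (adjusted p = 0.00092). Uqcrc1, a core protein, fell by 0.63 ± 0.19 in WT (adjusted p = 0.049), and its KO change was −0.51 ± 0.19 (adjusted p = 0.098).

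**Figure D3:**
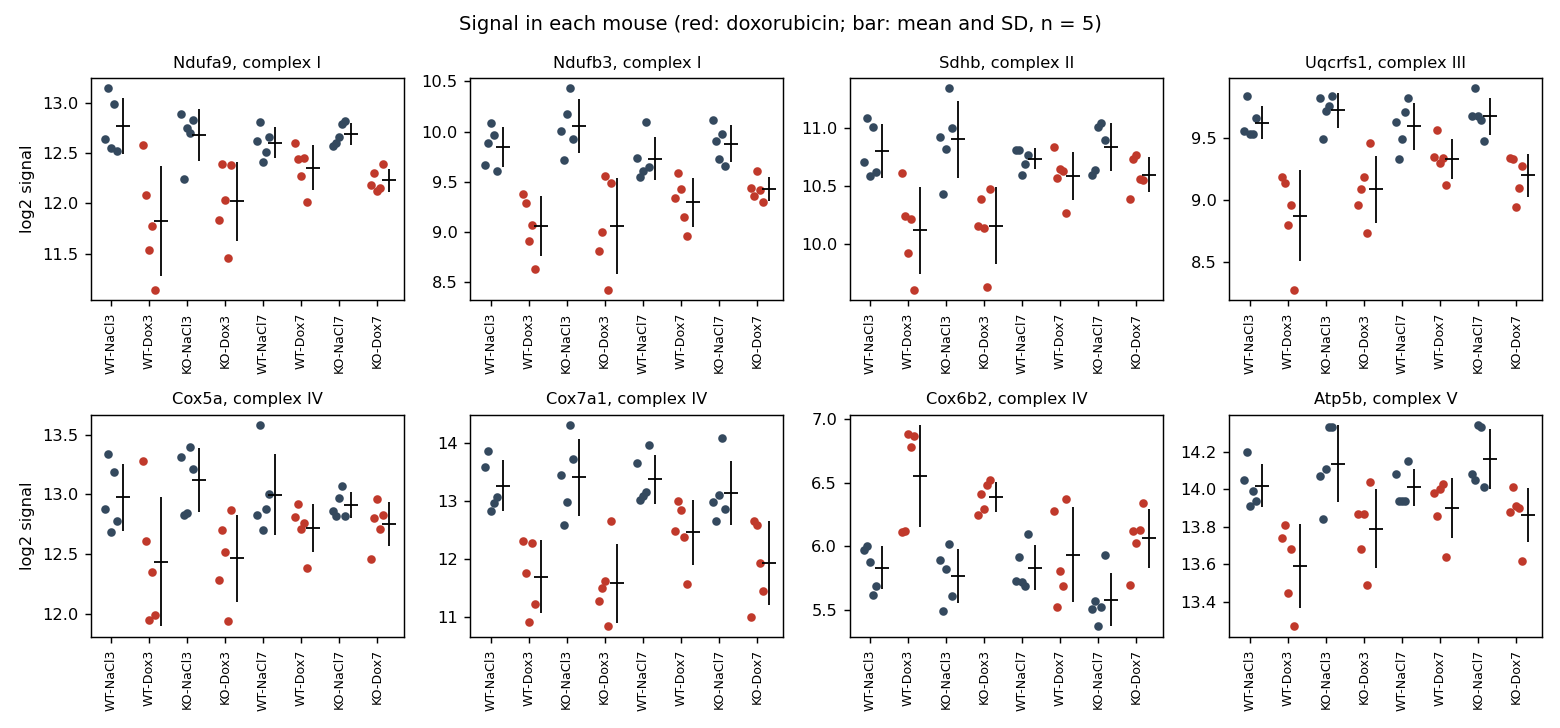
Log2 signal of 8 genes in every mouse, by group (red, doxorubicin; blue, saline; black bars are mean and SD, 5 mice per group). Ndufb3 and Uqcrfs1 show no overlap of doxorubicin and saline mice at day 3, Cox7a1 has the deepest fall and Cox6b2 alone rises.

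Complex IV was mixed. It had 6 fallen and 1 risen gene of 20 in each genotype, with medians of −0.39 and −0.35. Its 11 widely used subunits supplied 5 of the falls in each genotype, and 9 of them fell in the average over the genotypes. Of its 8 tissue-restricted paralogues, 1 fell and 1 rose, and 7 had signals under 6.99 in all groups. Cox4i2, Cox6a2, Cox7b2, Cox8b, Cox8c and Ndufa4l2 were among these and none of them passed.

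Cox7a1 (chr7:30184171-30186030), the heart and muscle form of subunit VIIa, had the largest fall of the 84 genes. It read 13.59, 13.87, 12.83, 12.97 and 13.07 in WT-NaCl3 and 12.31, 11.76, 10.91, 12.27 and 11.22 in WT-Dox3. It read 13.45, 12.58, 12.98, 14.31 and 13.72 in KO-NaCl3 and 11.27, 11.5, 11.61, 10.83 and 12.66 in KO-Dox3. The WT groups were apart, and a single KO-Dox3 mouse reached just above the lowest KO-NaCl3 mouse. The change was −1.57 ± 0.36 in WT (adjusted p = 0.0055) and −1.83 ± 0.36 in KO (adjusted p = 0.00043), which left 0.34 and 0.28 of the saline level on the linear scale. Cox7a2, the widely used form of the same subunit, fell by 0.76 ± 0.19 (adjusted p = 0.014) and 0.65 ± 0.19 (adjusted p = 0.025). Cox7a2l, which helps join complexes III and IV into supercomplexes, had −0.32 and −0.44 and passed in neither.

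Markers of smooth muscle were read beside Cox7a1. Falls over all clusters were 2.13% in WT and 3.68% in KO. Of 8 such markers 2 fell in WT and 6 in KO (medians −0.41 and −1.20), among them Synm (−0.95 and −1.71) and Mylk (−0.65 and −1.13). Their mean log2 level ran from 11.95 to 12.75 in WT-NaCl3 and from 11.40 to 12.22 in WT-Dox3, and from 12.09 to 13.25 in KO-NaCl3 and 11.21 to 11.95 in KO-Dox3. Of 8 adipocyte markers 1 fell in each genotype (medians −0.45 and −0.73), with mean levels of 6.58 to 7.58 and 5.72 to 6.42 in the WT groups and 6.02 to 7.51 and 5.43 to 6.09 in the KO groups; Adipoq, Plin1, Lep, Ucp1 and Cidea were under the highest background signal in all groups. Of 10 striated muscle markers 9 were under it, among them Ckm, which passed in KO. Unlike counts in WT and KO do not show that the genotypes differed in these markers, as the test of that difference below passed for no cluster. The part of these cell types in the fall of Cox7a1 was not tested.

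Cox6b2 (chr7:4751792-4753094), the testis form of subunit VIb, was the only one of the 84 genes that rose. It read 5.97, 6.00, 5.88, 5.62 and 5.69 in WT-NaCl3 and 6.11, 6.12, 6.88, 6.78 and 6.87 in WT-Dox3. It read 5.89, 5.49, 5.82, 6.02 and 5.61 in KO-NaCl3 and 6.25, 6.41, 6.29, 6.48 and 6.52 in KO-Dox3. All doxorubicin mice lay above all saline mice, as for 2.15% (WT) and 4.90% (KO) of all clusters, although the signal stayed under that of the brightest background probe set. The rise was 0.72 ± 0.16 in WT (adjusted p = 0.0038) and 0.62 ± 0.16 in KO (adjusted p = 0.0067). With only the compared groups in the fit it did not pass in WT (adjusted p = 0.081). Cox6b1, the widely used form, had −0.64 and −0.46 and passed in neither (adjusted p = 0.13 and 0.28).

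Other widely used subunits of complex IV varied in how many genotypes they passed in. Cox5b fell in both, by 0.61 and 0.47 (adjusted p = 0.0079 and 0.032), and Cox6c by 0.45 and 0.51 (adjusted p = 0.012 and 0.0016). Cox4i1, which binds the core of the complex, fell in WT by 0.49 ± 0.14 (adjusted p = 0.032) and had −0.34 ± 0.14 in KO (adjusted p = 0.14). Cox5a (chr9:57521232-57532427) fell in KO, by 0.66 ± 0.19 (adjusted p = 0.022), and had −0.54 ± 0.19 in WT (adjusted p = 0.12). Its signals were 12.88, 13.34, 12.68, 13.19 and 12.78 in WT-NaCl3 and 13.28, 12.61, 11.95, 12.35 and 11.99 in WT-Dox3, where mouse 144 was as high as the saline mice. Without that mouse the WT change was −0.75 (adjusted p = 0.0079). Cox8a fell in WT by 0.53 (adjusted p = 0.043) with −0.36 in KO, and Cox6a1 fell in KO by 0.50 (adjusted p = 0.040) with −0.52 in WT. Cox7b had −0.33 and −0.46 and passed in neither. Ndufa4 had −0.67 ± 0.24 in WT and 0.10 ± 0.24 in KO, and neither passed (adjusted p = 0.11 and 0.90).

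**Figure D4:**
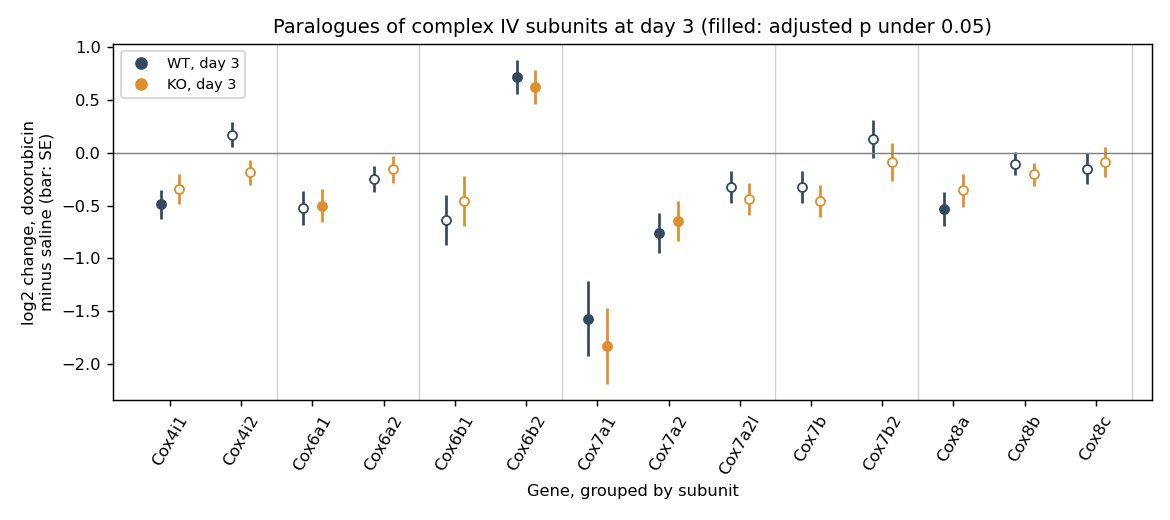
Complex IV subunits that come as paralogues: log2 change after doxorubicin at day 3 with its standard error (bars), WT and KO side by side, filled where the test was passed; the open points of Cox4i2, Cox6a2, Cox7b2, Cox8b and Cox8c come from signals under 6.99. Cox7a1 lies lowest, at −1.57 and −1.83, and Cox6b2 lies above 0, at 0.72 and 0.62.

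In complex V 13 of 20 genes fell in WT and 14 in KO (medians −0.52 and −0.44). The 20 include the pseudogenes and Atp5s and Atp5sl, which are no subunits. Of these Atp5l2 and Atp5sl were among the fallen in both genotypes. The head and central stalk, which make the ATP, supplied 4 of 5 genes in each genotype, and the peripheral stalk, which holds the head still, 4 of 4. Atp5b (chr10:128083273-128090391), the catalytic beta subunit, read 14.05, 14.2, 13.91, 13.99 and 13.94 in WT-NaCl3 and 13.74, 13.81, 13.45, 13.68 and 13.27 in WT-Dox3. It read 14.07, 13.84, 14.11, 14.33 and 14.33 in KO-NaCl3 and 13.87, 13.68, 13.87, 13.49 and 14.04 in KO-Dox3. The groups were apart in WT and overlapped in KO, and the falls were modest, at 0.43 ± 0.11 (adjusted p = 0.015) and 0.35 ± 0.11 (adjusted p = 0.039). Neither call held with only the compared groups in the fit (adjusted p = 0.12 and 0.16). Atp5h, a subunit of the peripheral stalk, fell without overlap by 0.63 (adjusted p = 0.0014) and 0.56 (adjusted p = 0.0018).

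The 3 genes of the c ring code for the same mature protein, and 1 of them passed; differences between the 3 were not tested. Atp5g3 fell by 0.61 ± 0.13 in WT (adjusted p = 0.0029) and 0.43 ± 0.13 in KO (adjusted p = 0.029), and Atp5g1 had −0.42 and −0.10 and Atp5g2 −0.37 and −0.04, none of which passed. The Atp5g2 cluster does not lie on the Atp5g2 gene. Among the entries that are no subunit, the pseudogene Atp5l2 fell by 0.81 in WT (adjusted p = 0.00069) and 0.57 in KO (adjusted p = 0.0097), beside Atp5l with 0.86 and 0.63 (adjusted p = 0.00078 and 0.0078). The Atp5l cluster does not lie on the Atp5l gene. The sequences of this family are near copies, so their probes may share transcripts. Atp5sl (Dmac2), a factor of complex I assembly, fell by 0.66 and 0.80 (adjusted p = 0.00082 and 1.8e-05). Over the 77 subunit genes whose cluster lies on the gene the counts were 40 fallen and 1 risen in WT and 41 and 1 in KO, with medians of −0.49 and −0.45.

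By day 7 the changes were smaller. In WT none of the 84 genes passed (0.0106% of all clusters rose and 0.00758% fell), 6 had an unadjusted p under 0.05, and the lowest adjusted p was 0.35. The median change was −0.185, and 77 of the 84 changes were negative. In KO 1 gene, Ndufb5, fell (0.602% of all clusters fell and 0.318% rose); the median was −0.31, 71 changes were negative and 40 had an unadjusted p under 0.05. Doxorubicin mice lay wholly below saline mice for 3 genes in WT (0.456% of all clusters) and 20 in KO (1.68%). Per mouse, the median over the 84 genes ran from −0.49 to −0.11 in WT-Dox7 and from −0.33 to −0.10 in KO-Dox7, against −0.20 to 0.07 in WT-NaCl7 and −0.07 to 0.13 in KO-NaCl7. The KO-Dox7 mice were all below their controls, and the WT-Dox7 mice overlapped theirs.

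Ndufb5 (chr3:32736990-32751566), an accessory subunit of the membrane arm of complex I, read 7.72, 7.71, 7.77, 7.71 and 7.45 in KO-NaCl7 and 7.28, 7.28, 7.15, 7.22 and 7.35 in KO-Dox7. The groups did not overlap, and the fall was 0.42 ± 0.10 (adjusted p = 0.043). This call at the threshold was lost without any of 10 single mice (adjusted p up to 0.14) and under 4 of the alternatives. The number of KO genes passing at day 7 was 0 to 6 with 1 mouse left out and 0 to 11 under the alternatives.

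Averaged over the genotypes, 7 of the 84 genes fell at day 7 and 0 rose, against 1.14% and 0.923% of all clusters. The median was −0.22. These were the complex I genes Ndufb3 (−0.45, adjusted p = 0.037), Ndufb5 (−0.36, adjusted p = 0.0042), Ndufb6 (−0.38, adjusted p = 0.042), Ndufb9 (−0.52, adjusted p = 0.019) and Ndufc1 (−0.50, adjusted p = 0.018), Uqcrfs1 (−0.37, adjusted p = 0.027) of complex III and Cox7a1 of complex IV. Cox7a1 had the largest of these falls, 1.06 ± 0.25 (adjusted p = 0.016). It read 13.65, 13.01, 13.08, 13.15 and 13.97 in WT-NaCl7 and 12.48, 13, 12.85, 12.38 and 11.57 in WT-Dox7, without overlap. In KO-NaCl7 it read 12.98, 12.65, 13.1, 14.09 and 12.86 and in KO-Dox7 10.99, 12.66, 12.59, 11.93 and 11.45, where 1 doxorubicin mouse lay just above the lowest saline value. The count of 7 was 2 without mouse 42263 of WT-Dox7, whose median over the genes was the lowest of its group, and 4 without mouse 136 or mouse 42299 of KO-Dox7 or mouse 206 of WT-NaCl7; under the alternatives it reached 22.

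The effect of doxorubicin was smaller at day 7 than at day 3 for 73 of the 84 genes in the average over the genotypes. The difference of the effects was tested for each gene. It was positive for 74 genes, with a median of 0.25, and passed for 5, none in the other direction, against 3.08% of all clusters that passed upward and 4.26% downward. The 5 were Sdhb (0.52, adjusted p = 0.037), Atp5sl (0.50, adjusted p = 0.0086), Ndufb7 (0.50, adjusted p = 0.020), Sdha (0.43, adjusted p = 0.023) and Ndufa6 (0.36, adjusted p = 0.046). Among them Ndufb7 was under 6.99 in all groups. The count of 5 was unsteady: it was 3 without any one of KO-Dox3 mouse 236, KO-NaCl3 mouse 254, WT-Dox3 mice 192 and 244, WT-NaCl3 mouse 44, KO-NaCl7 mouse 114 and KO-Dox7 mice 124 and 136. It was 8 to 15 without any one of KO-Dox3 mouse 196, KO-NaCl3 mouse 182, WT-Dox3 mice 144 and 146, WT-NaCl3 mouse 46, WT-Dox7 mouse 42263 and KO-Dox7 mice 116 and 42300, and with arrays centred on their medians it was 1. For Sdha the effect moved from −0.65 and −0.66 at day 3 to −0.08 (WT) and −0.36 (KO) at day 7. Saline mice of day 7 and day 3 differed in 0 of the 84 genes (limma; 0% of all clusters, and 0 of the genes at an unadjusted p under 0.05), with a median of −0.04.

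The last question was whether surfactant protein D altered these genes or their response. The interaction of genotype with doxorubicin passed for 0 of the 84 genes on either day (0% of all clusters; limma), with 2 genes at an unadjusted p under 0.05 at day 3 and 1 at day 7. The interaction at day 3 had a median of 0.07 and ran from −0.52 to 0.77 over the genes; its median standard error was 0.216, so that a 95% interval (normal approximation) reached 0.424 to either side for a typical gene. At day 7 it had a median of −0.09 and ran from −0.35 to 0.39. Differences within the interval of a typical gene could therefore have been missed gene by gene with 5 mice a group. This interval leaves out the adjustment over all clusters, and the standard error ran from 0.1095 to 0.507 over the genes. The genes that passed in 1 genotype alone were not shown to differ.

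Nor did a difference between the genotypes pass for a gene in any one condition. A 95% interval (normal approximation) of such a difference reached 0.30 to either side for a typical gene. KO against WT passed for 0 of the 84 genes in saline mice at day 3 (0.0258% of all clusters; 2 genes at an unadjusted p under 0.05) and at day 7 (0.0773%; 3 genes). After doxorubicin it passed for 0 at day 3 (0.0106%; 2 genes) and 0 at day 7 (0.00606%; 0 genes). Averaged over treatment and day it passed for 0 (1.95%; 6 genes), with a lowest adjusted p of 0.080. The median difference, KO minus WT, was 0.05 and 0.06 in saline mice and 0.03 in the average, and these 3 medians turned to −0.03, −0.04 and −0.02 after another round of quantile normalization. After doxorubicin the medians were 0.11 at day 3 and −0.03 at day 7.

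Other mitochondrial genes, in lists made with earlier results of these data known, put the respiratory chain in context. As the interaction at day 3 passed for 0% of all clusters, unlike counts in WT and KO do not show that the genotypes differed. Of all clusters 2.60% rose and 2.13% fell in WT at day 3, and 5.66% rose and 3.68% fell in KO. Of 13 citric acid cycle genes, which supply the chain with NADH and succinate, 7 fell in WT and 6 in KO at day 3 and none rose (medians −0.51 and −0.38). Of 9 further subunits and partner proteins whose symbols fall outside the rule, 7 and 5 fell. These included Higd2a, a factor of supercomplex formation (−1.12 and −1.0), and Atpif1, the inhibitor of ATP synthase hydrolysis (−0.81 and −0.66). Cyc1, the cytochrome of complex III, fell in WT by 0.82 (−0.57 in KO, adjusted p = 0.11). Of 12 genes for ubiquinone synthesis and electron transfer flavoproteins 2 and 4 fell, among them Etfa (−0.56 and −0.66). Only 3 of 13 mitochondrially coded subunits had a cluster under a symbol of their own, and none of the 3 passed. Their mean signals were high, from 15.15 (mt-Nd6) to 19.78 (mt-Nd3).

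Genes that build and import the chain were counted in the same way, and their difference from the 84 genes was not tested. The shares over all clusters were 2.60% risen and 2.13% fallen in WT, and 5.66% and 3.68% in KO. Of 42 assembly factors measured, in lists of 15 for complex I, 6 for complexes II and III, 17 for complex IV and 4 for complex V, 1 rose and 2 fell in WT, and 5 rose and 2 fell in KO; 15 of the 42 had signals under 6.99 in all groups. Cox18, which inserts a complex IV subunit into the membrane, rose by 0.44 and 0.86. Of 15 import and carrier genes 1 rose in WT and 6 in KO, where Tomm40, the pore of the outer membrane, rose by 1.09 and Timm23, a pore of the inner membrane, by 0.74; their WT changes were 0.63 and 0.21 (adjusted p = 0.14 and 0.70). Of 11 chaperones and proteases 2 and 4 rose and none fell, led by the matrix chaperonin Hspd1 (0.73 and 1.44) and Hspa9 (0.51 and 0.86).

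Among 17 regulators of mitochondrial biogenesis, Ppargc1a, the coactivator PGC-1alpha, had a clear fall. It read 12.9, 12.23, 11.91, 13.02 and 13.06 in WT-NaCl3 and 11.56, 11.9, 11.28, 11.21 and 10.69 in WT-Dox3. It read 13.1, 12.83, 12.65, 13.62 and 13.17 in KO-NaCl3 and 11.47, 11.75, 11.78, 11.6 and 11.75 in KO-Dox3. All doxorubicin mice were below all saline mice, by 1.30 ± 0.23 in WT (adjusted p = 0.00050) and by 1.40 ± 0.23 in KO (adjusted p = 5.2e-05). Its relative Ppargc1b fell by 0.78 (adjusted p = 0.017) and 1.08 (adjusted p = 0.00029), and the nuclear receptor Esrrg, under 6.99 in all groups, by 0.86 and 0.73. Pprc1, another coactivator of the family and equally dim, rose by 0.44 and 0.84. Nrf1 (−0.04 and 0.02) and Tfam (−0.11 and 0.08), which packs mitochondrial DNA and starts its transcription, passed in neither genotype. Nrf1 too was under 6.99 in all groups, as were 7 of the 17 regulators, so a change in it may be understated. Gabpa fell in KO by 0.34 (adjusted p = 0.0076), with −0.18 in WT. The list as a whole moved less than Ppargc1a in WT mice. The median deviation per mouse over the 17 regulators ran from −0.33 to 0.05 in WT-Dox3 and from −0.16 to 0.11 in WT-NaCl3. Of 14 glycolysis genes 2 fell in WT, and 1 rose and 3 fell in KO, with medians of −0.03 and −0.12. Over all clusters 2.13% fell in WT, and 5.66% rose and 3.68% fell in KO. Hk2, which starts glycolysis, rose by 1.55 in KO, with 1.0 in WT (adjusted p = 0.096).

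**Figure D5:**
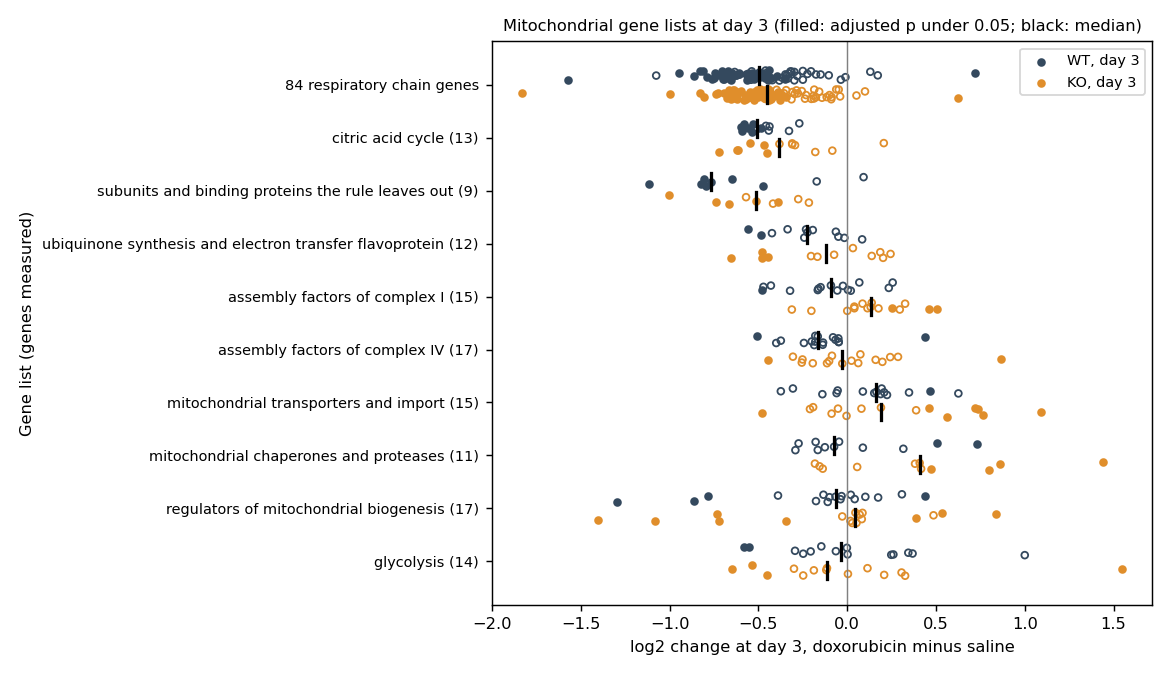
Log2 change at day 3 (x axis) of the 84 genes and of the genes of 9 other lists, WT above KO; filled points passed the test and black bars are medians. The respiratory chain (−0.50 and −0.45) and the citric acid cycle (−0.51 and −0.38) lie below 0, and the chaperones and proteases lie at −0.07 and 0.41.

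Markers of the cell types of the jejunum were read beside the respiratory chain. Over all clusters 2.60% rose and 2.13% fell in WT, and 5.66% rose and 3.68% fell in KO. Of 12 markers of mature enterocytes 1 fell in WT and 2 in KO and none rose (medians −0.01 and −0.15). Their mean level ran from 18.29 to 18.40 in WT-NaCl3, 18.13 to 18.43 in WT-Dox3, 18.24 to 18.81 in KO-NaCl3 and 18.06 to 18.35 in KO-Dox3. Single markers averaged 15.75 (Fabp1) to 19.85 (Fabp2) over all arrays, against 3.14 to 16.77 for the respiratory chain genes. Whether changes are understated at such high signals was not tested. Of 8 markers of proliferating crypt cells 1 rose in WT and 7 in KO (Rrm2 by 1.66 and 3.01). Their mean level ran from 8.44 to 9.40 and from 8.38 to 10.11 in the WT groups, and from 7.99 to 8.87 and from 9.61 to 9.95 in the KO groups. Leukocyte markers had 1 riser in WT and 2 in KO of 8, with Cd68 up by 1.40 and 1.66. Their mean level ran from 8.72 to 9.33 in WT-NaCl3 and from 8.91 to 10.69 in WT-Dox3, where mouse 244 stood apart at the top, and from 7.75 to 9.0 in KO-NaCl3 and 8.71 to 9.17 in KO-Dox3. Of 6 goblet and Paneth cell markers 0 rose in WT and 2 in KO. Their mean level was 15.55 to 16.08 and 15.95 to 16.35 in the WT groups, and 13.43 to 16.20 and 15.93 to 16.78 in the KO groups, where mouse 254 of KO-NaCl3 stood apart at the bottom. Without mouse 244 the count of respiratory chain genes passing in WT was 24, and without mouse 254 that in KO was 27, as given above. Leaving out other mice, also named above, lowered the counts to a like extent. The part of a shift in cell types, smooth muscle included, in the fall of the respiratory chain genes was not tested.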

How the data were processed

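The authors isolated TRIzol RNA from the jejunum, the middle segment of the small intestine, of 40 mice and hybridised it to the Affymetrix Mouse Transcriptome Array 1.0. The log2 signals deposited by the authors are normalized; per the methods, background was corrected by normexp and arrays were quantile normalized with limma before Transcriptome Analysis Console was used for an analysis of variance, whereas the submitters' processing notes name RMA in Affymetrix Expression Console. Which of these made the values was not settled. The fold, p-value and group-average columns deposited by the authors hold their own comparisons and were not used for results; gene symbols came from these tables.

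Control probe sets (6732 of 72688) were left out. Group means of 8 groups were fitted together with limma 3.58.1 in R 4.3.3 (lmFit, eBayes) and 15 contrasts tested, with Benjamini-Hochberg adjustment over 65956 clusters at 0.05. The fit was tested on simulated data. Other steps used Python 3.11.15, pandas 2.3.3 and numpy 2.4.6. Replicates were separate mice, and their number limits the precision.

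Members, lists and motifs were chosen with earlier results of these data known. List genes were read only where a cluster carried a symbol of theirs alone, which held for 196 of 228. The others were left out of the counts, which does not show that the array lacks them. Genes were named by rule: the largest changes in either direction, core subunits, paralogues, regulators, and up to 4 passing genes a list. Ndufs8, Ndufb6, Ndufa6, Sdhc, Sdhd and Atp5h, and the promoters and genes named in short counts, fell outside the rule and were chosen after their values were seen. Alternatives were the compared groups alone, the methods' test, brightness and symbol filters, array weights, trended and robust variances, renewed quantile normalization, median centring, the mean of clusters, and leaving out each mouse. The methods' test was a plain analysis of variance on the compared groups alone, without the eBayes step.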

Additional observations from a re-analysis of the deposited data

Results flagged for a closer look

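Within groups of 5 mice, values of 32 respiratory chain genes, of Ppargc1a and Ppargc1b and of the medians by complex made 320 sets. These were searched for a mouse far from the other 4, by Dixon's criterion (0.71). The 11 found were fewer than chance gives, at about 1 in 20, and the sets are not independent. Mouse 42263 of WT-Dox7 accounted for 8 of the 11. Its median over the 84 genes was −0.49 (others −0.20 to −0.11), and its medians were −0.55 in complex I, −0.56 in complex II and −0.29 in complex IV. It also had the lowest Cox6b1 (14.73, others 15.49 to 15.64), Cox7a2 (13, others 13.51 to 13.58), Cox8a (14.85, others 15.41 to 15.57) and Ndufv1 (9.33, others 9.76 to 9.92). Mouse 42295 of KO-NaCl7 was lowest for Cox7b (11.91, others 12.35 to 12.5) and Ndufb5 (7.45, others 7.71 to 7.77). Mouse 248 of KO-Dox3 was highest for Ndufa4 (14.0, others 13.52 to 13.65).

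The effect of doxorubicin differed between day 7 and day 3, by a test of the difference itself, for Sdhb (0.52), Atp5sl (0.50), Ndufb7 (0.50), Sdha (0.43) and Ndufa6 (0.36), on the log2 scale.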

How the results depend on the processing

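No paired analysis was possible because the groups share no replicate numbers. Counts are of the 84 genes passing. WT at day 3 gave 44, with 5 when the fit held the compared groups alone, 0 by the methods' test, and 24 to 54 with 1 mouse left out. KO at day 3 gave 45, with 27 in only the compared groups, 15 by the methods' test, 27 with median-centred arrays, and 24 to 51 with 1 mouse left out. KO at day 7 gave 1, with 0 by the methods' test and with trend and robust variances, 6 among brighter clusters, 4 among clusters with 1 symbol, 11 with array weights, 2 with centring, and 0 to 6 with 1 mouse left out. The average at day 3 gave 64 (59 to 69 with 1 mouse left out). The average at day 7 gave 7, with 22 in only the compared groups, 20 by the methods' test, 11 among brighter clusters, 13 with array weights, 13 after quantile normalization, and 2 to 10 with 1 mouse left out. The change from day 3 to day 7 gave 5, with 11 among brighter clusters, 8 among clusters with 1 symbol, 12 with array weights, 1 with centring, and 3 to 15 with 1 mouse left out (15 without mouse 144 of WT-Dox3). KO against WT averaged over conditions gave 0, with 1 under array weights, 3 with centring, and 0 to 1 with 1 mouse left out. The remaining comparisons gave 0 in all runs. The cause was not tested, except that fewer arrays enter the fit of the compared groups and the methods' test.

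Of 121 passing gene results, 51 were lost with only the compared groups, 75 by the methods' test, 23 with centring, and 11 each with trend and robust variances and after quantile normalization; 76 passed without each mouse in turn. Among results that did not pass, Atp5g2 in KO at day 3 turned to 0.007 as a mean over clusters. With 1 mouse left out at day 3, Nrf1 ran from −0.076 to 0.014 in WT and −0.029 to 0.0695 in KO, Tfam from −0.19 to 0.031 in WT, and in KO Atp5g1 from −0.28 to 0.0105, Atp5g2 from −0.25 to 0.059 and Ndufa4 from −0.11 to 0.25. Over all clusters the rising and falling calls were 1713 and 1402 in WT at day 3, but 1281 and 1790 after quantile normalization, and 210 and 397 in KO at day 7, but 111 and 605 with centring. For the 11 genes under the highest background signal, differences may be understated.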
